A study of Sus scrofa with 8 samples.

Results

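The vacuolar proton pump (V-ATPase) was followed in pig liver through 10 of its subunit genes. They were the rows of the deposited FPKM table whose symbol is ATP6V0A1, ATP6V0B, ATP6V0C, ATP6V0D1, ATP6V1A, ATP6V1B2, ATP6V1C1, ATP6V1E1, ATP6V1H or ATP6AP1. All 10 were found among the 18103 genes listed, each with 1 row, and all 10 passed the filter on low values, which 13175 genes passed. FPKM (fragments per transcript kilobase, scaled to the number of mapped fragments of the library) is a level per transcript length, so that levels of different genes in a library can be set side by side.

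Liver RNA of male Landrace x Large White pigs was sequenced in 8 libraries, each a pool of equal RNA amounts from 2 pigs. In the initial state (4 pools, labelled healthy) the pigs were 4 months old, ate the control diet and were biopsied by laparotomy. In steatosis (4 pools) the same animals were 6 months old and had eaten for 2 months a diet rich in saturated fat, fructose, cholesterol and cholate and poor in methionine and choline, and the liver was taken after euthanasia. No pigs of 6 months on the control diet were among the samples, so diet, age and way of sampling cannot be told apart. From the steps between low FPKM values, the depth was estimated at 18700000 to 20400000 fragments per library, which puts at least 315 fragments behind every value of a member.

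The pump uses ATP to move protons into lysosomes, endosomes and secretory vesicles. Its cytosolic V1 part binds and splits ATP, its membrane part V0 carries the protons, and accessory proteins help the complex to assemble and to reach its membrane. Lysosomes of hepatocytes and of macrophages depend on this acidity for their hydrolases, and the assembled pump is also a docking place of the nutrient sensing machinery on the lysosomal surface.

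The members covered a wide range of levels, which the plot of member levels by pool shows. In the initial state ATP6V0C had the highest level, with a mean of 113 ± 10.6 FPKM (SD, n = 4), and ATP6V0A1 the lowest, with 5.09 ± 0.981 FPKM. Between them stood ATP6V0D1 and ATP6V0B, whose ranges over the pools overlapped, then ATP6V1E1, then ATP6V1C1, ATP6AP1 and ATP6V1B2, of which each overlapped with the next, and then ATP6V1H and ATP6V1A, whose ranges were separate. In steatosis ATP6V0C and ATP6V0A1 kept the ends of the order. ATP6V0B (53.7 ± 1.6 FPKM) then stood apart above ATP6V0D1 (37.3 ± 1.72 FPKM), and the range of ATP6V1A (10 to 14.8 FPKM) overlapped with that of ATP6V1H (10.33 to 12.96 FPKM).

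**Figure D1:**
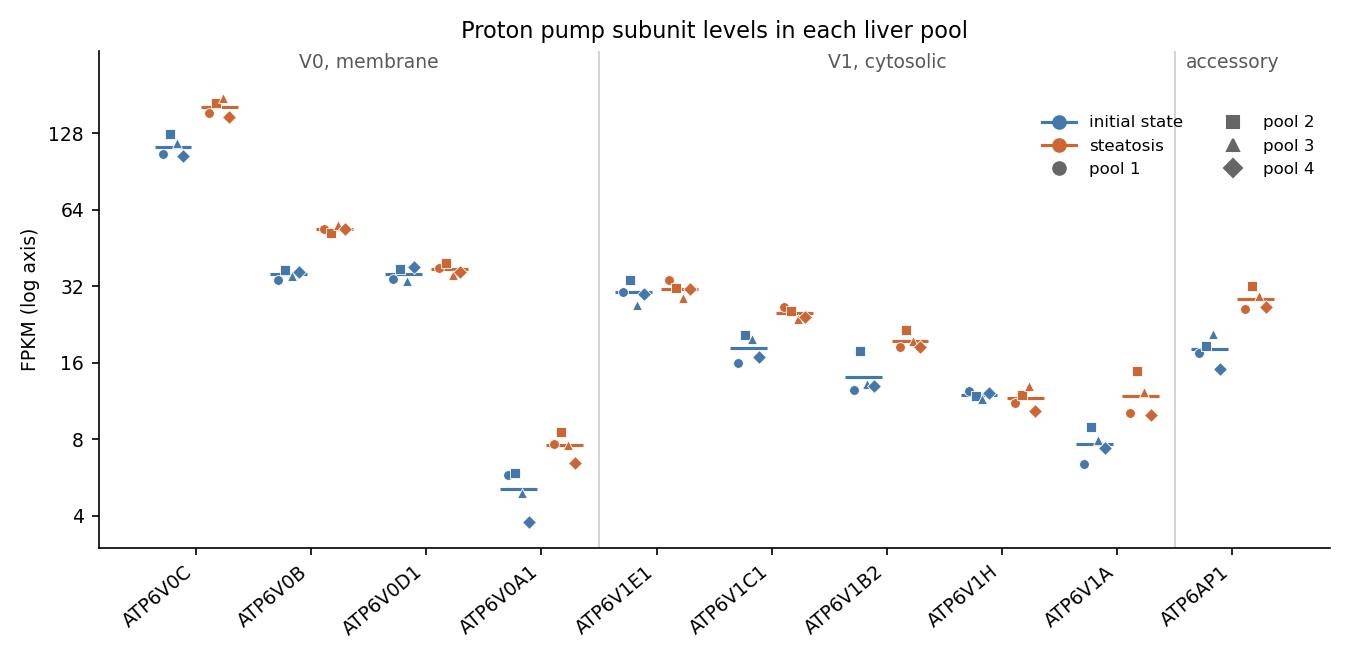
FPKM (log axis) of the 10 members in each of the 8 liver pools, with the initial state on the left (blue) and steatosis on the right (orange) for each gene. Marker shapes give the pool number and horizontal bars the group means, and the groups are separate for 7 members and overlap for ATP6V0D1, ATP6V1E1 and ATP6V1H.

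Which subunits differed between the initial state and steatosis was tested with limma on log2(FPKM + 0.1), with Benjamini-Hochberg adjustment over the 13175 genes. At an adjusted p under 0.01, 3 of the 10 members were higher in steatosis and 0 were lower, where 12.9% of all tested genes were higher and 0.744% lower. No member passed when a log2 fold change beyond 1 was also asked for, a rule that 6.01% of tested genes passed upwards and 0.334% downwards. At an adjusted p under 0.05 the count was 7 of 10 higher and 0 lower, beside 26.7% and 2.28% of tested genes. The same 7 members lay higher in steatosis with no overlap between the groups, beside 29.6% of tested genes (2.53% lay lower without overlap), and were higher in all 4 pairs of pools of the same number, beside 44.1%.

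The median tested gene lay in the same direction. FPKM is a relative level, and the FPKM sums of the libraries ran only from 511863 (steatosis pool 2) to 545731 (initial pool 4). The shift of the median gene is therefore no measure of total RNA. The 10 members had a median log2 fold change of 0.49, where the median gene tested was at 0.25. With libraries scaled by the median ratio to their geometric mean, the median of the members became 0.22 and that of all tested genes -0.01, and 0 members passed an adjusted p of 0.01, where 5.66% of tested genes were higher and 2.88% lower. Under this scaling 2 members, ATP6V0B and ATP6AP1, passed an adjusted p of 0.05 upwards and 0 downwards, beside 11.7% and 9.78% of tested genes. None passed with a log2 fold change beyond 1 as well, which 3.12% of tested genes did upwards and 0.63% downwards. Under each of the settings tried, 7 members lay above the median gene and 3 (ATP6V0D1, ATP6V1E1 and ATP6V1H) below it. For the scalings this follows nearly by construction, since 1 factor per library moves a member and the median gene almost alike.

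Among the V0 subunits, ATP6V0C encodes the c subunit of the proton-carrying ring in the membrane (chr3:39532707-39538704, Sscrofa11.1). Its level was 105.78, 126.97, 116.7 and 104.15 FPKM in initial pools 1 to 4 and 154.05, 168.72, 175.24 and 148.28 FPKM in steatosis pools 1 to 4. Every steatosis pool was above every initial pool, and pools 2 and 3 were the highest in both groups. ATP6V0C rose by 0.51 on the log2 scale (SE 0.10, limma adjusted p = 0.0043), which is 0.26 above the median gene, and with median ratio scaling the difference was 0.24 (adjusted p = 0.0953). Its call was lost without initial pool 1, initial pool 4, steatosis pool 1, steatosis pool 2 or steatosis pool 3, with adjusted p-values up to 0.0162, and in the fit with no mean-variance trend, where 2 members passed.

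ATP6V0B encodes the c'' subunit of the same ring (chr6:167316945-167320355). Initial pools 1 to 4 had 33.83, 37.18, 35.19 and 36.38 FPKM, and the steatosis pools 53.85, 51.73, 55.64 and 53.71 FPKM. The spread within each group was the smallest relative to the gap of any member, and the groups were far apart. ATP6V0B rose by 0.59 on the log2 scale (SE 0.08, adjusted p = 0.000588), or 0.34 above the median gene, and the adjusted p was at most 0.00339 when any 1 library was left out. With median ratio scaling it was higher by 0.32 (adjusted p = 0.0338). The log2 ratio of ATP6V0C to ATP6V0B, the ring subunits, was 1.67 ± 0.11 in the initial state and 1.59 ± 0.11 in steatosis (SD, n = 4, exact permutation p = 0.314).

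ATP6V0A1 encodes an isoform of the a subunit, the membrane arm along which protons enter and leave the ring (chr12:20288409-20344142). The initial pools had 5.77, 5.9, 4.93 and 3.77 FPKM and the steatosis pools 7.68, 8.58, 7.58 and 6.43 FPKM. Pool 4 was the lowest in both groups, and the lowest steatosis pool was above the highest initial pool. The log2 difference was 0.58 (SE 0.16, adjusted p = 0.023), and 0.31 with median ratio scaling (adjusted p = 0.116), so that ATP6V0A1 did not pass the limit of 0.01.

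ATP6V0D1 encodes the ubiquitous d subunit, which couples the ring to the rotating stalk (chr6:28090180-28132080). Its pools read 34.27, 37.26, 33.65 and 38.15 FPKM in the initial state and 37.85, 39.47, 35.54 and 36.44 FPKM in steatosis. The groups overlapped, and pool 4 was lower in steatosis than in the initial state. The log2 difference was 0.06 (95% interval -0.13 to 0.25, adjusted p = 0.616), and -0.21 with median ratio scaling (95% interval -0.44 to 0.01, adjusted p = 0.165).

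In the V1 part, ATP6V1A encodes the catalytic A subunit that splits ATP (chr13:146128664-146165269). Initial pools 1 to 4 had 6.38, 8.92, 7.94 and 7.39 FPKM and steatosis pools 1 to 4 had 10.17, 14.8, 12.29 and 10 FPKM. Pool 2 was the highest in both groups and the groups did not overlap. The log2 difference was 0.61 (SE 0.15, adjusted p = 0.0155), and a fit with a block for each pool number gave an adjusted p of 0.00656. With median ratio scaling it was 0.34 (adjusted p = 0.126).

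ATP6V1B2 encodes the B subunit isoform that alternates with A in the ATP-binding hexamer (chr14:4289257-4318587). The initial pools read 12.5, 17.83, 13.22 and 12.95 FPKM and the steatosis pools 18.44, 21.58, 19.57 and 18.49 FPKM. Initial pool 2 stood well above the other initial pools and just below the lowest steatosis pool, and steatosis pool 2 was again the highest. The log2 difference was 0.48 (SE 0.13, adjusted p = 0.0199) with all libraries and 0.59 (adjusted p = 0.00374) without initial pool 2. The log2 ratio of ATP6V1A to ATP6V1B2 was -0.88 ± 0.13 in the initial state and -0.74 ± 0.16 in steatosis (SD, n = 4, exact permutation p = 0.257).

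ATP6V1C1 encodes the ubiquitous C subunit, which joins the V1 and V0 parts and leaves the pump when it comes apart (chr4:34033943-34084990). Its level was 15.99, 20.62, 19.92 and 16.94 FPKM before the diet, against 26.62, 25.67, 23.82 and 24.2 FPKM in the steatosis pools. The groups did not overlap, and the order of the pools differed between them. The log2 difference was 0.45 (SE 0.11, adjusted p = 0.0111), just short of the limit, and 0.51 (adjusted p = 0.00992) without initial pool 2. With median ratio scaling it was 0.18 (adjusted p = 0.169).

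ATP6V1E1 encodes an E subunit of the peripheral stalks (chr5:69752644-69772038). The initial pools had 30.47, 33.75, 27.09 and 29.89 FPKM and the steatosis pools 33.8, 31.4, 28.78 and 31.34 FPKM. The ranges lay almost on top of each other. The log2 difference was 0.05 (95% interval -0.16 to 0.26, adjusted p = 0.718), and with median ratio scaling -0.22 (95% interval -0.44 to -0.01, adjusted p = 0.132).

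ATP6V1H encodes the H subunit, which holds V1 and V0 together and stops ATP hydrolysis in detached V1 (chr4:77211493-77269757). Its pools read 12.44, 11.82, 11.49 and 12.12 FPKM in the initial state and 11.1, 11.98, 12.96 and 10.33 FPKM in steatosis. The initial pools were close together and lay inside the range of the steatosis pools. It was the member with the lowest difference, -0.05 on the log2 scale (95% interval -0.27 to 0.17, adjusted p = 0.726), which is -0.30 relative to the median gene and -0.32 with median ratio scaling (95% interval -0.57 to -0.07, adjusted p = 0.0704).

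ATP6AP1 encodes the accessory protein Ac45, a membrane glycoprotein that helps V0 to assemble (chrX:124952532-124960344). Initial pools 1 to 4 had 17.51, 18.68, 20.86 and 15.16 FPKM and steatosis pools 1 to 4 had 25.97, 32.17, 29.25 and 26.52 FPKM. The groups were separate, with the lowest steatosis pool above initial pool 3, the highest of the initial state. ATP6AP1 rose by 0.66 on the log2 scale (SE 0.12, adjusted p = 0.00327), the largest difference among the members and 0.41 above the median gene. The call was lost without steatosis pool 2 or steatosis pool 3 (adjusted p up to 0.0123) and with median ratio scaling (0.39, adjusted p = 0.0234).

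**Figure D2:**
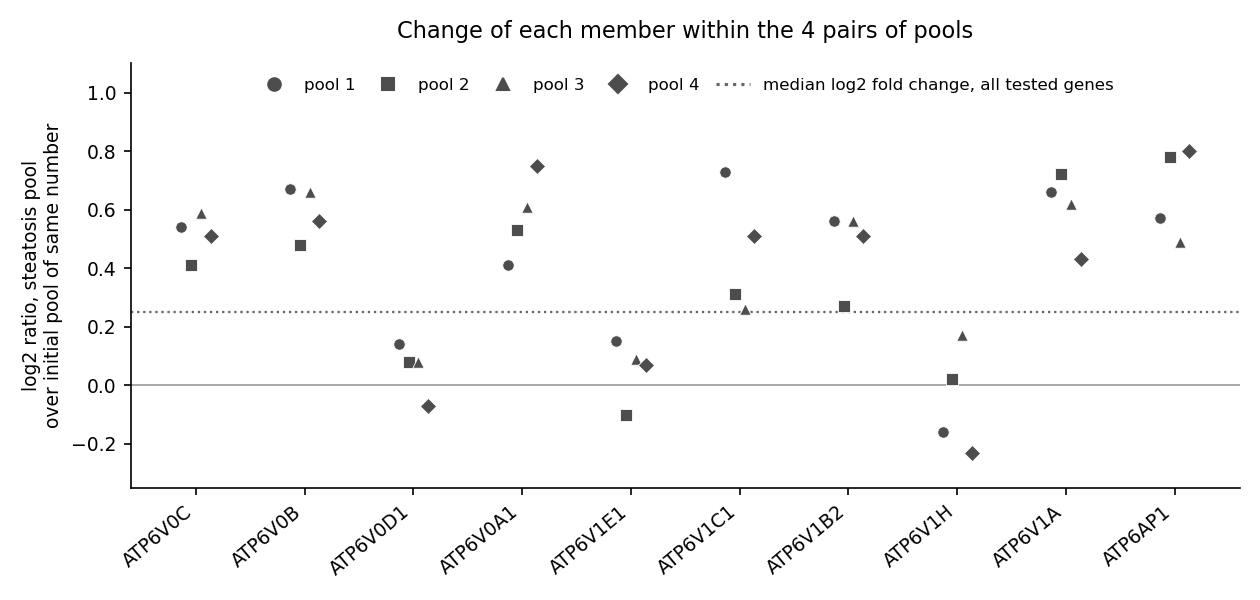
The log2 ratio of each steatosis pool to the initial pool of the same number for the 10 members, with marker shapes for the pool number and a dotted line at 0.25, where the median of the tested genes lies on this scale. All 4 pairs lie above 0 for 7 members, while ATP6V0D1, ATP6V1E1 and ATP6V1H scatter around 0.

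The pairs of pools of the same number, which hold RNA of the same pigs where the pooling was kept, gave the same picture. The log2 ratio within pairs ran from 0.48 to 0.67 for ATP6V0B, from 0.41 to 0.59 for ATP6V0C and from 0.49 to 0.80 for ATP6AP1. It was more uneven for ATP6V1C1, from 0.26 in pair 3 to 0.73 in pair 1, and for ATP6V1B2, from 0.27 in pair 2 to 0.56 in pairs 1 and 3. In ATP6V1H it was above 0 in 2 pairs and below 0 in 2, from -0.23 in pair 4 to 0.17 in pair 3.

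Each of the 7 separated members was also set against each of the 3 overlapping ones within every library, which takes the scaling between libraries out. These 21 ratios were formed after the values had been seen and are a description. In 20 of them the steatosis pools were all above the initial pools, and only ATP6AP1 to ATP6V1E1 overlapped (0.507 to 0.770 in the initial state and 0.768 to 1.02 in steatosis). The FPKM ratio of ATP6V0C to ATP6V1H was 9.50 ± 1.12 in the initial state and 14 ± 0.351 in steatosis, and that of ATP6V0B to ATP6V0D1 0.996 ± 0.0381 and 1.44 ± 0.106 (SD, n = 4). Since the genes above and below the line were picked by whether their groups separated, the count of 20 largely restates that choice.

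The other genes of the pump gave the same mixed picture. Of 16 other subunit genes on the list 15 were measured and 12 tested, and 4 rose at an adjusted p under 0.01, 2 of them beyond a log2 fold change of 1, with 0 lower. Of all tested genes 12.9% were higher at this limit, and 6.01% when the fold change was also asked for. The median log2 fold change of the 12 subunits was 0.30, and with median ratio scaling 0.03, with 2 calls. ATP6V0E2 was not found among the symbols and was not analysed here.

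TCIRG1, the a subunit isoform of osteoclasts and immune cells, had 2.88, 2.89, 2.71 and 3.84 FPKM before the diet, against 6.45, 6.07, 6.27 and 5.96 FPKM in the steatosis pools. It rose by 1.0 on the log2 scale (SE 0.13, adjusted p = 0.000577), and by 0.73 with median ratio scaling (adjusted p = 0.0113), which misses the limit. ATP6V0D2, the d subunit isoform of osteoclasts and some macrophages, had 0.03, 0.0, 0.03 and 0.05 FPKM before the diet, against 1.34, 2.13, 2.57 and 0.59 FPKM in the steatosis pools (adjusted p = 0.00025). Both genes are thus higher in every steatosis pool, ATP6V0D2 from a level at which no more than a few fragments stand behind a value. ATP6V0D2 passed the filter on low values only through its steatosis pools. When 0.3 FPKM was asked for in at least 7 libraries it was not tested, and 3 other subunits were called.

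ATP6V1F, the F subunit of the rotating stalk, had 13.86, 15.03, 16.99 and 13.52 FPKM before the diet, against 27.0, 30.74, 27.78 and 26.55 FPKM in the steatosis pools, and rose by 0.91 (SE 0.10, adjusted p = 0.000261). It passed the limit with median ratio scaling too (0.64, adjusted p = 0.0017). ATP6V1G3, a G subunit isoform of the peripheral stalks, had 0.83 to 1.44 FPKM in the initial state and 1.96 to 3.85 FPKM in steatosis, and rose by 1.26 (SE 0.23, adjusted p = 0.00368). With median ratio scaling ATP6V1G3 was higher by 1.0 (adjusted p = 0.0197), and its call was also lost without initial pool 2 or without steatosis pool 1, 3 or 4 (adjusted p up to 0.014).

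The remaining subunits did not pass the limit. ATP6V0E1, the small e subunit of V0, had a log2 difference of 0.29 (adjusted p = 0.031) and ATP6V1G1, the ubiquitous G subunit, of 0.41 (adjusted p = 0.0286). ATP6V1D of the rotating stalk (0.30, adjusted p = 0.159), ATP6AP2, the prorenin receptor (0.17, adjusted p = 0.169), ATP6AP1L (0.09, adjusted p = 0.693), ATP6V1C2 (0.05, adjusted p = 0.755) and ATP6V1G2 (0.05, adjusted p = 0.937) had adjusted p-values above 0.05, and ATP6V0A2, another a isoform, was at -0.13 (adjusted p = 0.453). ATP6V0A4 (0.0775 FPKM on average in the initial state), ATP6V1B1 (0.245 FPKM) and ATP6V1E2 (0.015 FPKM) were below the filter and were not tested.

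**Figure D3:**
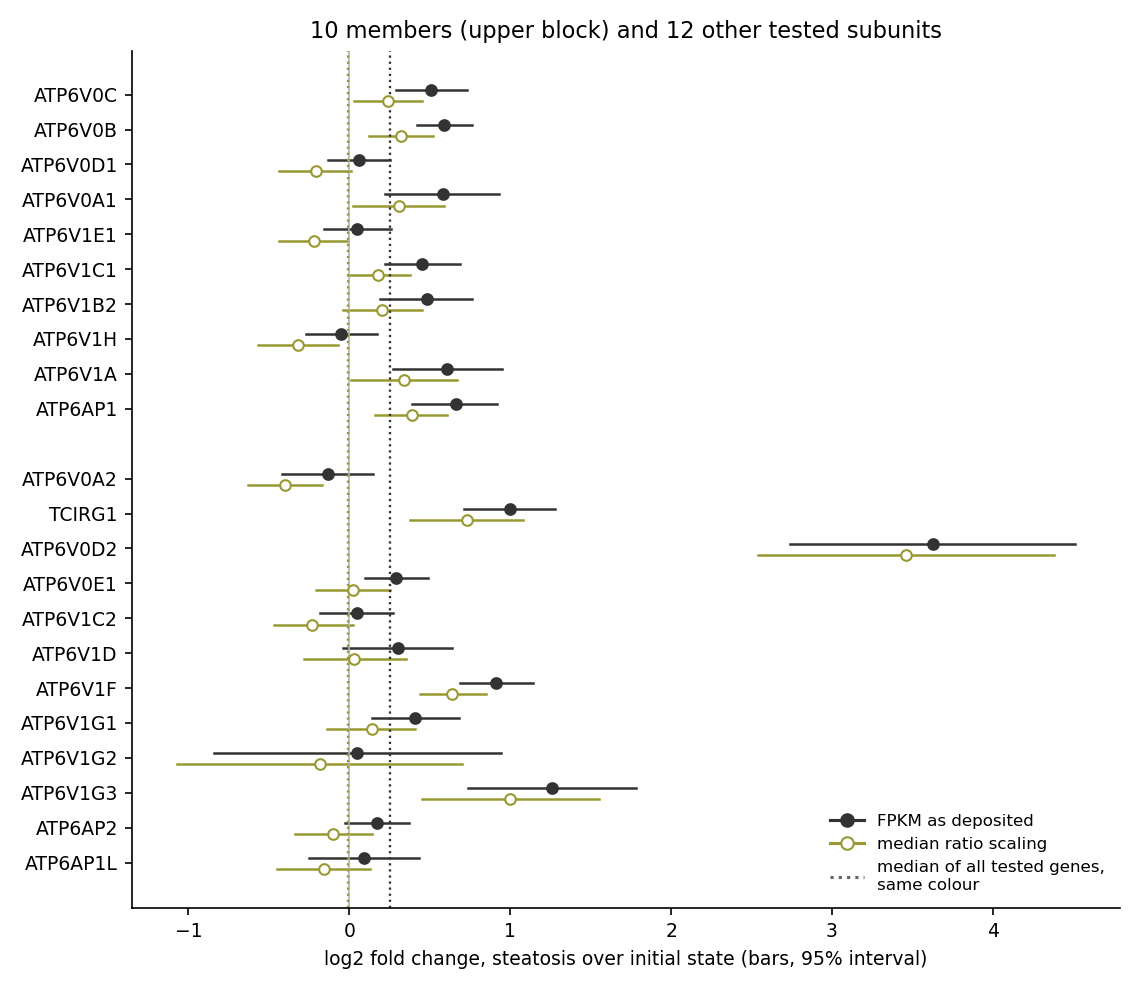
The log2 fold change of steatosis over the initial state with its 95% interval for the 10 members and 12 other tested pump subunits, with FPKM as deposited (filled) and after median ratio scaling (open). Dotted lines mark the median of all tested genes, 0.25 and -0.01, and scaling moves each gene by about that shift, so that ATP6V0D1, ATP6V1E1 and 4 of the other subunits change side of 0.

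Shares of the isoforms of a subunit and ratios of genes within a library do not depend on the scaling between libraries. A family of 11 such shares and ratios was tested with exact two-sided permutation tests, in which 4 pools against 4 cannot go below p = 0.0286, and that smallest p became 0.0524 after adjustment over the family. No ratio therefore passed an adjusted p of 0.05, although 6 of the 11 had no overlap between the groups, ATP6V1E1 within the E isoforms included (99.95% and 99.82% on average). These tests do not use the pairing of pools of the same number. In the exact sign-flip test of the 4 pairs each of these 6 had p = 0.125, the smallest that test can give. Among these 6, the E share turns on ATP6V1E2, with an estimated 1 to 8 fragments per library. The d share turns on ATP6V0D2, which was at 0.05 FPKM or less in the initial pools.

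ATP6V0A1 held 39.5 ± 4.87% of the summed FPKM of the a isoforms in the initial state and 42.1 ± 2.18% in steatosis (SD, n = 4, exact permutation p = 0.4, adjusted p = 0.489). The other a isoforms changed places around it. ATP6V0A2 held 33.0 to 39.2% in the initial state and 20.5 to 24.1% in steatosis, while TCIRG1 held 20.9 to 33.3% and 31.4 to 36.5%, with initial pool 4 inside the range of steatosis. These 2 shares are given without a test.

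For the C subunit, ATP6V1C1 made up 53.34, 54.77, 54.92 and 49.71% of ATP6V1C1 and ATP6V1C2 in the initial pools and 59.35, 62.25, 59.18 and 59.81% in the steatosis pools (exact permutation p = 0.0286, adjusted p = 0.0524). All steatosis pools were above all initial pools, and ATP6V1C2 itself, with 16.1 ± 1.47 and 16.6 ± 1.13 FPKM, was close to equal in the groups. ATP6V0D1 made up 99.91, 100.0, 99.91 and 99.87% of the d isoforms in the initial pools and 96.58, 94.88, 93.26 and 98.41% in the steatosis pools (p = 0.0286 in the exact permutation test, adjusted p = 0.0524). ATP6V1B2 made up 98.29 ± 0.247% and 98.47 ± 0.643% of the B isoforms (SD, n = 4, exact permutation p = 0.657).

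The summed FPKM of the 5 V1 members to that of the 4 V0 members, a ratio in which ATP6V0C has the largest part, was -1.21, -1.16, -1.26 and -1.20 on the log2 scale in the initial pools. In the steatosis pools it was -1.34, -1.35, -1.49 and -1.38, lower in each of the 4 pairs and without overlap (exact permutation p = 0.0286, adjusted p = 0.0524). Measured subunits that are not members are left out of this ratio. Their initial and steatosis means were 74.0 and 90.8 FPKM for ATP6V0E1 of V0. In V1 they were 29.7 and 39.8 FPKM for ATP6V1G1, and 14.8 and 28.0 FPKM for ATP6V1F. The lower ratio therefore holds for the sums of the members and depends on which subunits are members. It is not a result about the whole pump, since the ratio of V1 to V0 over all measured subunits was not tested. The log2 ratio of ATP6AP1 to ATP6AP2, the accessory proteins, went from -0.14 ± 0.26 to 0.35 ± 0.08 (SD, n = 4, exact permutation p = 0.0286, adjusted p = 0.0524), again higher in all 4 pairs.

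**Figure D4:**
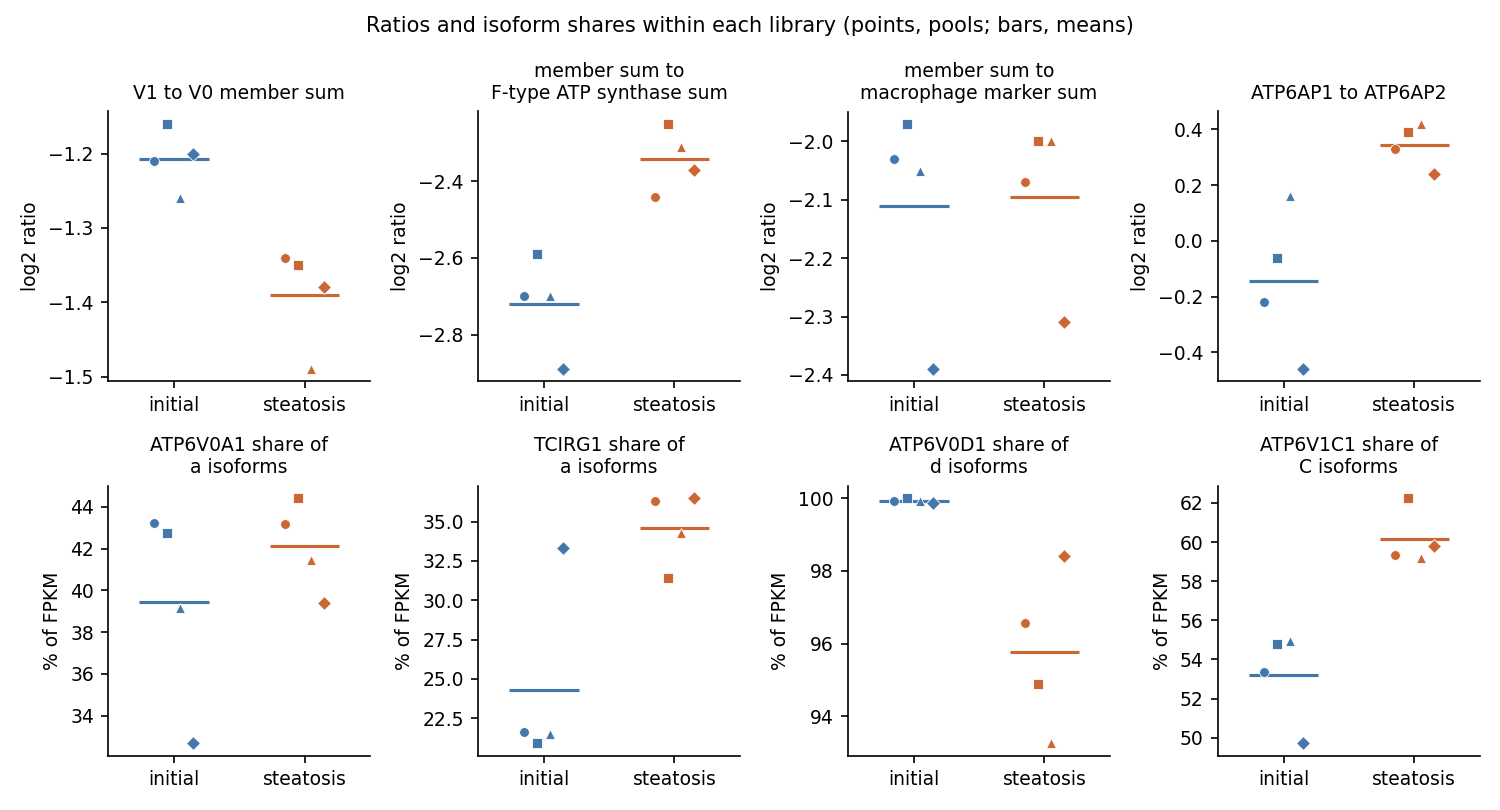
Ratios (log2) and isoform shares (percent of summed FPKM) within each library in the initial state (blue) and in steatosis (orange), with circles, squares, triangles and diamonds for pools 1 to 4 and bars for group means. The V1 to V0 ratio of the members is lower and the ATP6AP1 to ATP6AP2 ratio and ATP6V1C1 share are higher in all steatosis pools. The ratio to macrophage markers and the ATP6V0A1 share overlap.

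The mitochondrial F-type ATP synthase, a rotary relative of the pump that makes ATP instead of using it, served as a comparison. Of its 15 measured subunits, all tested, 0 passed an adjusted p of 0.01 or of 0.05 in limma, in either direction, and the median log2 fold change was 0.08 as deposited and -0.20 with median ratio scaling. The log2 ratio of the summed pump members to the summed ATP synthase subunits was -2.70, -2.59, -2.70 and -2.89 in the initial pools and -2.44, -2.25, -2.31 and -2.37 in the steatosis pools. The pump was higher relative to the synthase in every steatosis pool than in any initial pool (exact permutation p = 0.0286, adjusted p = 0.0524).

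Genes that work with the pump on the lysosome were counted from lists. At an adjusted p under 0.01, 12.9% of all tested genes were higher and 0.744% lower. With median ratio scaling these shares were 5.66% and 2.88%. Of the 4 MiT/TFE transcription factors, which drive lysosomal genes including pump subunits, 2 rose at an adjusted p under 0.01, TFEC (1.13, adjusted p = 0.00206) and TFEB (0.51, adjusted p = 0.0097), and with the pool block only TFEC did, TFEB being at an adjusted p of 0.0199. The TFEB call was also lost whichever library was left out (adjusted p 0.0115 to 0.035). With median ratio scaling neither passed (adjusted p = 0.0149 and 0.0862), and the median of the list was 0.67 as deposited and 0.41 after scaling. TFE3 (0.46, adjusted p = 0.0212) and MITF (0.84, adjusted p = 0.0413) did not pass.

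Of 10 Ragulator and Rag genes, which form the docking complex of nutrient sensing beside the pump, 2 rose, LAMTOR4 (0.63, adjusted p = 0.00133) and RRAGC (0.51, adjusted p = 0.00953, named because it was called). With the pool block RRAGC missed the limit (adjusted p = 0.0106), and with median ratio scaling both did. Of 11 tested lysosomal ion channels and exchangers 2 rose, the chloride-proton exchanger CLCN7 (0.79, adjusted p = 0.00317) and the two-pore channel TPCN2 (0.93, adjusted p = 0.00396), and 0 passed after median ratio scaling (adjusted p = 0.0113 and 0.0107). For both lists the share to set beside the counts is the 12.9% of all tested genes that were higher, or 5.66% with median ratio scaling.

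Of 10 assembly and regulatory factors of the pump, 1 rose and 1 fell, where 12.9% of all tested genes were higher and 0.744% lower. NCOA7, a TLDc protein that binds the pump, was at 2.00 ± 0.212 FPKM and 2.98 ± 0.109 FPKM (0.56, adjusted p = 0.00821). Its call was lost with the pool block (adjusted p = 0.0239) and with median ratio scaling (0.30, adjusted p = 0.14). When 1 library was left out, its adjusted p ran up to 0.0278. ROGDI, a subunit of the complex that reassembles V1 on V0, had 14.72, 18.83, 28.13 and 16.87 FPKM before the diet, against 10.89, 5.57, 6.84 and 5.70 FPKM in the steatosis pools. It fell by 1.44 on the log2 scale (SE 0.25, adjusted p = 0.0026) and by 1.71 with median ratio scaling (adjusted p = 0.0018), against the direction of the members that rose.

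The 5 tested genes with the pattern most like the mean centred profile of the members over the 8 pools were SMAD4, REST, RAB10, DIRC2 and SEPT7, by a mean absolute difference of log2 values from 0.0343 to 0.0422, where the median of all tested genes was 0.215. Among the members this distance ran from 0.059 for ATP6V0C to 0.222 for ATP6V1H. The profile itself was lowest in initial pools 4 (-0.29) and 1 (-0.26) and highest in steatosis pool 2 (0.30), and initial pool 2 (-0.05) was the initial pool closest to steatosis.

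The members are used by many cell types, and in whole liver a change in the number of cells of a type and one in the RNA per cell cannot be told apart. Of 12 macrophage markers 7 were higher in steatosis at an adjusted p under 0.01 and 0 lower, where 12.9% of all tested genes were higher and 0.744% lower. With median ratio scaling 3 were higher, beside 5.66% of tested genes. Without overlap between the groups 8 lay higher and 1 lower, beside 29.6% and 2.53%. The summed level of the 12 markers was 1120 to 1460 FPKM in the initial pools and 1590 to 1810 FPKM in the steatosis pools. The log2 ratio of the summed members to this sum was -2.11 ± 0.19 in the initial state and -2.10 ± 0.14 in steatosis (SD, n = 4, exact permutation p = 0.8), and with mean log2 values in place of sums the ratio was lower by 0.45 in steatosis. Lipid-associated macrophage markers summed to 4350 to 5660 FPKM and 6480 to 7010 FPKM (6 of 8 higher). Most of this sum was APOE, which was not called (4760 ± 624 FPKM and 5460 ± 359 FPKM, SD, n = 4, limma adjusted p = 0.24), while LGALS3 went from 4.33 ± 1.79 to 275 ± 81.9 FPKM. Osteoclast-like markers summed to 20.0 to 22.6 FPKM and 171 to 281 FPKM (5 of 6 tested higher, with 1 of the 8 genes at 0 in all initial pools). Hepatocyte markers, with 0 of 8 called, summed to 62300 to 95000 FPKM and 55300 to 66200 FPKM, most of it ALB. The part of these marker levels in the differences of the pump members was not tested.

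Of the other markers tested, 1 of 4 neutrophil, 0 of 5 T cell, 1 of 6 endothelial, 1 of 7 stellate cell and 0 of 4 cholangiocyte genes were higher, and 1 of 4 B cell genes was lower. Among all tested genes 12.9% were higher and 0.744% lower. Initial pool 1 stood apart from the other libraries through genes of skeletal muscle (sum of 2809 FPKM, against 0.1 to 20.99 FPKM elsewhere) and of stomach mucosa (1524 FPKM against 5.81 to 28.99 FPKM), and its adipose markers summed to 85.1 FPKM, against 16.5 to 63.9 FPKM. Without initial pool 1, 2 members (ATP6V0B and ATP6AP1) passed an adjusted p of 0.01 and 7 passed 0.05, where 3 and 7 did with all libraries. The share of all tested genes that passed without this pool was not counted, so these numbers cannot be set against it.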

How the data were processed

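Per the sources used here, the authors filtered the reads, mapped them with HISAT2 2.0.4 to assembly Sscrofa11.1, added new coding transcripts and estimated expression with Bowtie2 2.2.5 and RSEM 1.2.12. FPKM values were used as deposited, with no stated scaling between libraries. The authors' comparisons of single pools (log2 fold changes and FDR) were not used, apart from transcript lengths. The paper's joint limits (log2 fold change beyond 1 and FDR of 0.01) were kept as 1 of the call rules. Most counts use an adjusted p under 0.01 with no limit on the fold change. limma 3.58.1 (R 4.3.3, mean-variance trend) was fitted to log2(FPKM + 0.1) of the 13175 of 18103 genes that reached 0.3 FPKM in 4 or more libraries, by group only, with Benjamini-Hochberg adjustment. A fold change on this scale understates the change of low genes. Shares and ratios were tested with exact two-sided permutation tests (Python 3.11.15). The scripts were tested on simulated data. Groups and pool numbers were taken from the sample titles.

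The pool numbers were taken as pairs, although the sample titles do not say that pools of the same number held the same pigs. Deviations from the group means correlated between pools of the same number (r = 0.163, 0.35, 0.317 and 0.247 for pools 1 to 4). Each of the 4 initial pools correlated best with its own number. Whether shared pigs or shared handling gave these correlations was not tested.

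The members and gene lists were chosen with earlier results of these data known. Named were all members, every other subunit, at most 4 genes of each other list (the 2 highest and the 2 with the largest fold change) and the 5 nearest in pattern. Marker lists are given by counts and sums. Depth was estimated from the whole-fragment steps of FPKM values under 1.2 in genes of 350 to 800 bases. Coordinates are those of RefSeq genes of Sscrofa11.1. Promoter and protein sequences were not used here, and the planned comparison of them was not run. Alternatives were other scalings, filters, pseudocounts and limits, no trend, the pool block and leaving out each library.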

Additional observations from a re-analysis of the deposited data

Results flagged for a closer look

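In groups of 4 pools, the highest or lowest pool was set apart by Dixon's criterion at the 95% level (the gap to its neighbour over the group's range) in 5 of 80 groups examined, and chance alone gives about 1 in 20. ATP6V1B2 in initial pool 2 was 17.83 FPKM, with the other initial pools between 12.5 and 13.22 FPKM. TCIRG1 in initial pool 4 was 3.84 FPKM, against 2.71 to 2.89 FPKM. The remaining 3 were all in initial pool 1, the pool with transcripts of muscle and stomach mucosa: ATP6V0A4 was 0.29 FPKM there and 0.0 to 0.02 FPKM in the other initial pools, ATP6V1E2 was 0.03 FPKM against 0.01 FPKM, and the share of ATP6V1E1 among the E isoforms was 99.9%, against 99.96 to 99.97%. These low values rest on few fragments, at most 16 for ATP6V0A4 and 8 for ATP6V1E2 in any library by the depth estimate.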

How the results depend on the processing

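The 3 member calls at an adjusted p under 0.01 became 0 with a common upper quartile and 0 with median ratio scaling, 4 with the replicate block (pool number), 1 at an adjusted p under 0.001 and 7 under 0.05, and 2 with no trend (ATP6V0C lost), and 1 to 5 when 1 library was left out (5 without initial pool 2, 1 without steatosis pool 2 and 1 without steatosis pool 3). The 4 other subunits called became 2 with median ratio scaling, and 3 with 0.3 FPKM asked for in at least 7 libraries, where ATP6V0D2 was not tested. The 2 calls among MiT/TFE factors became 1 with a common FPKM sum, no filter, no trend or the replicate block, 0 with a common upper quartile or median ratio scaling, 0 and 4 at limits of 0.001 and 0.05, and 1 to 2 without 1 library, TFEB not among them in any. The 2 among Ragulator and Rag genes became 1, 0, 0 and 5 under those same settings, and 1 to 3 without 1 library. The 2 among ion channels became 0 with both of the latter scalings, 0 and 5 at the other limits, and 0 to 2 without 1 library. The 1 assembly factor that rose became 0 with both scalings, no filter, the replicate block or the stricter limit and 0 to 1 without 1 library, and the 1 that fell became 0 at 0.001. The replicate block changed no member call other than that of ATP6V1A. Shares of all tested genes were counted only for FPKM as deposited and for median ratio scaling. For the other settings the counts show how stable the calls were, and not how they compare with all genes.

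Directions turned with a common upper quartile and median ratio scaling for ATP6V0D1 (-0.17 and -0.21), ATP6V1E1 (-0.18 and -0.22), ATP6AP1L (-0.12 and -0.16), ATP6AP2 (-0.06 and -0.10), ATP6V1C2 (-0.19 and -0.23) and ATP6V1G2 (-0.15 and -0.18). Without 1 library ATP6V1C2 ran from -0.02 to 0.08 and ATP6V1G2 from -0.28 to 0.42. The ratio of members to macrophage markers turned from 0.02 to -0.45 with mean log2 values. These scalings remove nearly all of the shift of the median gene by construction, and for the other changes the cause was not tested. The exact sign-flip test of 4 pairs cannot go below p = 0.125. Pooling of 2 pigs leaves the spread between single animals unmeasured.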
